A study of Mus musculus with 8 samples.

Results

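Receptor tyrosine kinases are the single-pass membrane receptors through which growth factors, guidance cues and matrix proteins signal. The 40 genes described here were taken by name from the 55357 genes in the deposited table and include 10 Eph receptors. They were measured by RNA-seq in germ cells from testes of C57BL/6 males at 15 days after birth, with 1 library per mouse. The 4 control males were *Mgat2*[F/F], carrying *Mgat2* flanked by loxP sites and no Cre. The 4 conditional knockout males (cKO) were *Mgat2*[F/F]:*Stra8*-iCre, in which the *Stra8* promoter drives Cre recombinase in spermatogonia, so that deletion is directed to germ cells. Germ cells were obtained by enzymatic dissociation of tubules, filtration and centrifugation, without a marker-based sort.

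Binding of a ligand brings receptor chains together, the kinase domains phosphorylate each other on tyrosine, and adaptor proteins that bind the phosphotyrosines pass the signal to the ERK and AKT pathways. The extracellular parts of these receptors carry N-glycans, and MGAT2 is the Golgi enzyme that adds the GlcNAc needed for a biantennary complex N-glycan. In the testis, many of the receptors are known from somatic cells. VEGF and angiopoietin receptors belong to endothelium, CSF1R to macrophages, PDGF receptors to peritubular and interstitial cells, and the TYRO3, AXL and MERTK receptors to Sertoli cells, which engulf dying germ cells. FGFR1, FGFR3 and EPHA2 are known from spermatogonia. RNA levels say nothing of the glycans on these proteins.

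Expected counts totalled 12584726 to 15907505 per control library and 14069373 to 15572196 per cKO library, and a signal of 3 counts was worth 0.189 to 0.238 CPM, the counts scaled for library size. *Mgat2* was lower in cKO libraries by 1.05 on the log2 scale, from 56.4 ± 16.9 to 27.2 ± 10.8 CPM (SD, n = 4). This passed with DESeq2 (adjusted p = 0.025) and not with edgeR's quasi-likelihood test (adjusted p = 0.47). In cKO replicates 1 and 3, at 35.3 and 37.6 CPM, *Mgat2* lay above control replicate 2, at 31.8 CPM. Among its annotated exon bases, 13.8% overlap *Rpl36al* or *Gm49383*. Germ cell markers were present, with *Sycp3*, a synaptonemal complex protein of spermatocytes, at 328 to 586 TPM, a level scaled for transcript length and library size. Sertoli cell markers were present as well. *Clu*, which encodes clusterin, ran from 3754 to 4590 TPM, and the summed level of 10 Sertoli markers was 5424 to 6719 TPM in control and 5650 to 6721 TPM in cKO libraries. In bulk RNA of this kind, fewer cells of a type and less RNA per cell cannot be told apart. Control replicate 1 stood apart most, with a mean Pearson's r of 0.944 to the other libraries, against 0.959 to 0.966 for the rest. For cKO replicate 1 the mean r was 0.959, like that of other libraries. Genotypes are also compared below without control replicate 1 and without replicate 1 of both genotypes, though the labels do not say that libraries of the same number belong together.

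All 40 receptors passed the expression filter of TPM at least 1 in at least 1 library, but over a wide range of levels. *Epha10* and *Tek* passed it through control libraries alone, with cKO values of at most 0.76 and 0.88 TPM. Of 19 other receptor tyrosine kinases listed, 8 passed it. Per transcript length, *Tyro3* was highest, with a mean of 147 TPM over the 8 libraries, and *Tek* lowest, with 0.749 TPM. Mean levels were at least 10 TPM for 12 receptors and under 2 TPM for 13, against a median of 9.34 TPM over all genes tested. The 6 receptors of highest level supplied 73.7% to 74.7% of the summed TPM of the 40 in control libraries and 73.3% to 74.2% in cKO libraries. Most of the receptor RNA in this preparation was thus held by a few genes, in both genotypes.

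**Figure D1:**
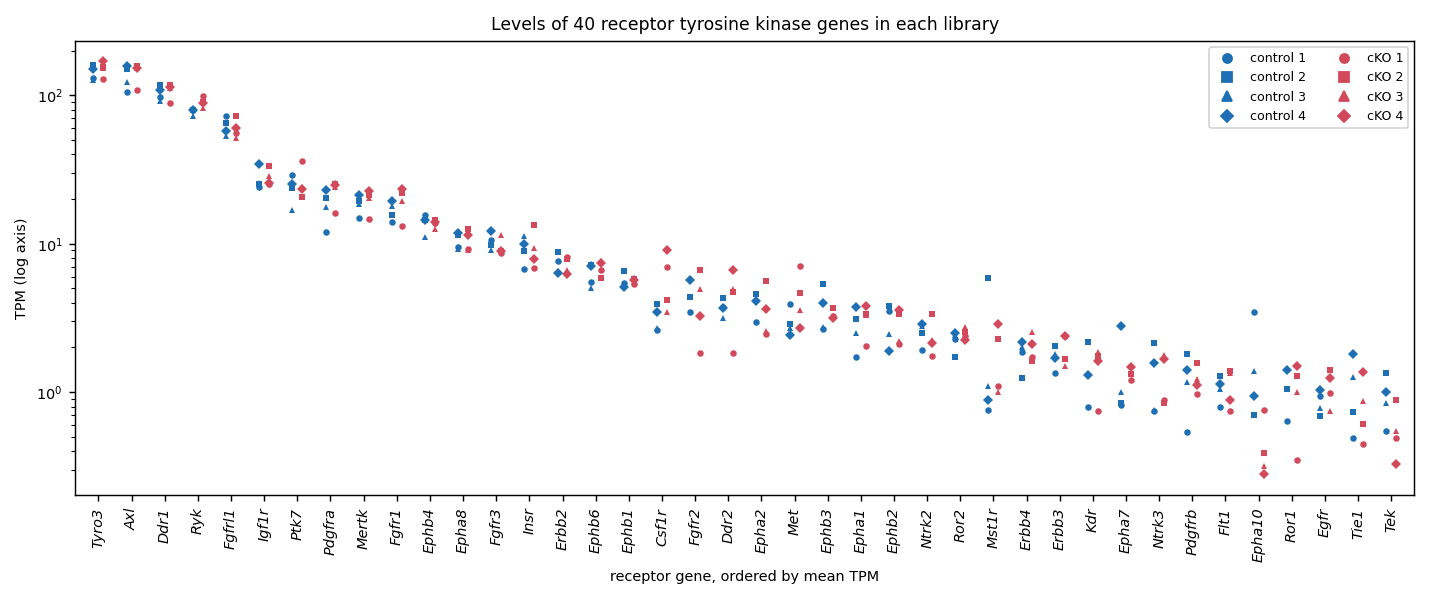
TPM of the 40 receptor genes in each of the 8 libraries, on a log axis, ordered by mean TPM. Blue points are control and red points cKO libraries, and the marker shape gives the replicate number. *Tyro3* (mean 147 TPM), *Axl* (138 TPM) and *Ddr1* (106 TPM) lead, and *Tek* (0.749 TPM) is last.

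The TAM receptors, which bind GAS6 and protein S bridged to phosphatidylserine on dying cells, were among the most abundant. *Tyro3* was measured at 131, 161, 127 and 151 TPM in control replicates 1 to 4 and at 128, 155, 152 and 169 TPM in cKO replicates 1 to 4. *Axl* was measured at 106, 151, 123 and 158 TPM in control and at 108, 156, 152 and 152 TPM in cKO libraries. *Mertk* was lower, at 14.9, 19.5, 18.5 and 21.2 TPM in control and 14.6, 21.2, 20.3 and 22.6 TPM in cKO libraries. Genotypes overlapped fully for each of the 3, and replicate 1 was the lowest or next to lowest control and the lowest cKO library. Together they made up 36.8% to 41.4% of the receptor TPM in control and 36.5% to 41.7% in cKO libraries.

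The next level was held by *Ddr1*, a collagen receptor of epithelial cells, and *Ryk*, a Wnt co-receptor whose kinase domain is inactive. *Ddr1* was measured at 97.1, 117, 92.1 and 108 TPM in control and at 88.4, 117, 111 and 113 TPM in cKO libraries. *Ryk* was measured at 79.8, 79.3, 71.9 and 80.0 TPM in control and at 98.1, 89.4, 81.7 and 88.7 TPM in cKO libraries, and for this gene each cKO value was above each control value. *Fgfrl1*, an FGF receptor relative that has no kinase domain, followed, at 72.5, 64.9, 53.4 and 57.8 TPM in control and at 55.9, 72.1, 51.7 and 59.9 TPM in cKO libraries. Between *Fgfrl1* and *Igf1r*, the next gene, lay the one step in the order of 40 at which the lowest library of the higher gene was above the highest library of the lower gene. All other neighbours in the order overlapped.

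*Igf1r*, the receptor of insulin-like growth factors, was measured at 24.2, 25.3, 25.8 and 34.2 TPM in control and at 25.3, 33.1, 28.5 and 25.6 TPM in cKO libraries. *Ptk7*, a kinase-inactive receptor of planar cell polarity, was measured at 28.9, 23.7, 16.9 and 25.4 TPM in control and at 36.0, 20.6, 24.1 and 23.4 TPM in cKO libraries, with replicate 1 the highest in both genotypes. These were followed by *Pdgfra* (mean 20.4 TPM), *Mertk* (19.1 TPM) and *Fgfr1* (18.1 TPM). The Eph receptors, which bind membrane-anchored ephrins on neighbouring cells, were led by *Ephb4* (13.8 TPM) and *Epha8* (10.5 TPM), and *Epha10* (1.03 TPM) was the lowest of the 10.

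Genotypes were compared on TMM-normalized CPM, with fold changes as cKO over control and adjustment over all 20187 genes tested. EdgeR's quasi-likelihood test called 0 of the 40 receptors (lowest adjusted p = 0.39), where it called 8 of all genes tested, each of them lower (0.0396%). At an unadjusted p under 0.05 edgeR gave 3 receptors, against 8.9% of all genes. *Epha10* was the lower one, against 6.28% of all genes, and *Ryk* and *Csf1r* were the higher ones, against 2.62%. DESeq2 called 1 receptor, *Epha10*, where it called 302 of all genes (1.5%), lower for 1.41% and higher for 0.0892%. At an unadjusted p under 0.05 DESeq2 gave 3 receptors, against 9.63% of all genes. The receptors were thus called about as seldom as other genes.

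Without replicate 1 of either genotype, edgeR called 3 receptors, *Epha10* lower and *Ryk* and *Pdgfra* higher. Over all genes this fit called 855 (4.24%), lower for 3.78% and higher for 0.451%. Leaving out control replicate 1 alone, or cKO replicate 1 alone, edgeR called 0 receptors.

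Differences were small for most receptors. The log2 fold changes ran from -1.88 for *Epha10* to 0.59 for *Csf1r*, with a median of 0.09 against 0.01 over all genes tested. They were above 0 for 29 receptors and below 0 for 11, where 51.3% of all genes were above 0. For 35 of the 40, the genotype of higher level was less than 25% above the other. The 95% interval of the fold change lay inside 1.5-fold in both directions for 20 receptors, and for the other 20 it reached past 1.5-fold on at least 1 side. *Ryk* was the one receptor whose genotypes did not overlap, where 5.5% of all genes did not (2.47% higher and 3.03% lower in cKO libraries).

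**Figure D2:**
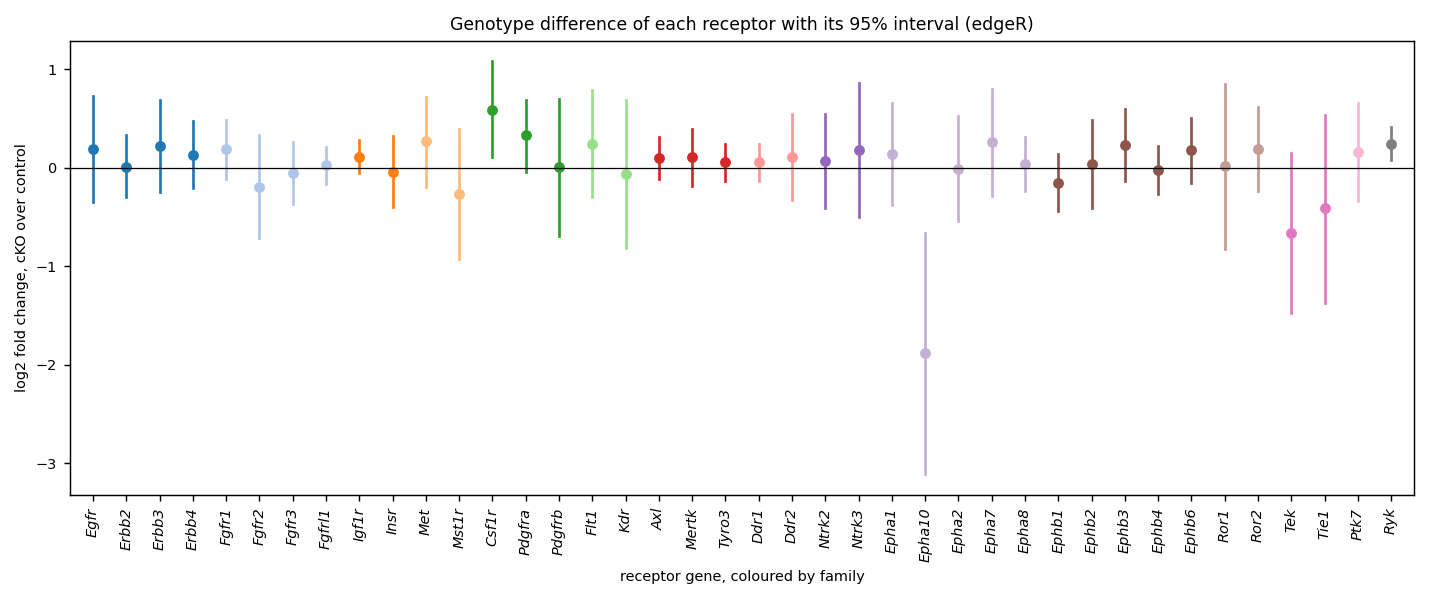
Log2 fold change (cKO over control) of each receptor from edgeR, with its 95% interval as a line, coloured by receptor family. *Epha10*, at -1.88, lies far below the others, and the intervals of *Epha10*, *Csf1r* and *Ryk* are the ones that leave out 0.

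*Epha10* (ENSMUSG00000028876, GRCm39 chr4:124774692-124811594, plus strand) encodes an Eph receptor with an inactive kinase domain, known for expression in the testis. It was measured at 10.0, 1.94, 3.92 and 2.58 CPM in control replicates 1 to 4 and at 2.19, 1.10, 0.907 and 0.780 CPM in cKO replicates 1 to 4. Control replicate 1 was far above the other controls, and cKO replicate 1, the highest of its genotype, lay between control replicates 2 and 4, so the genotypes overlapped. Means were 4.62 ± 3.71 and 1.24 ± 0.644 CPM (SD, n = 4), and the log2 fold change was -1.88 (SE 0.55, 95% interval -3.11 to -0.66, edgeR adjusted p = 0.39). DESeq2 gave -1.90 with an adjusted p of 0.042. *Epha10* passed the expression filter through control libraries alone, as given above. Without control replicate 1 DESeq2 gave -1.18 with an adjusted p of 0.45. The DESeq2 call was also lost without control replicate 3 (adjusted p = 0.14) or cKO replicate 2, 3 or 4 (adjusted p = 0.20, 0.23 and 0.21), and it held without control replicate 2 or 4 or cKO replicate 1 (adjusted p = 0.0032 to 0.020). Without both replicates 1, edgeR gave -1.59 with an adjusted p of 0.012. *Epha10* was lower in cKO libraries in each of these fits, by an amount that was smallest without control replicate 1. Among its annotated exon bases, 10.4% overlap other genes, of which *1700125G02Rik* had 0 counts in every library and *Gm70061* is not named among the deposited genes.

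Markers of spermatocytes and spermatids had log2 fold changes on both sides of 0. Among them DESeq2 called *Piwil1* alone, while edgeR called none. *Piwil1*, the piRNA-binding protein of pachytene spermatocytes and round spermatids, was measured at 271, 91.9, 134 and 76.4 TPM in control and at 64.8, 26.5, 27.5 and 21.7 TPM in cKO libraries (DESeq2 adjusted p = 0.035, edgeR adjusted p = 0.44). The summed level of 8 spermatocyte markers was 1040 to 1423 TPM in control and 893 to 1062 TPM in cKO libraries, with log2 fold changes above 0 for 2 of the 8, *Dmc1* (0.33, SE 0.16) and *Meiob* (0.13, SE 0.15). Those below 0 ran from -0.07 for *Hormad1* to -2.05 for *Piwil1*, with *Spo11* at -0.54 (SE 0.16, DESeq2 adjusted p = 0.066). *Ccna1* had -1.18 (SE 1.05), with 6.79 CPM in control replicate 1 and 0.937 to 1.04 CPM in the other controls. The summed level of 6 spermatid markers was 11.7 to 44.5 TPM in control and 7.02 to 18.8 TPM in cKO libraries. The defining markers *Tnp2* and *Prm1* were at 0 in all 8 libraries. Of these 6 spermatid markers, 2 passed the expression filter, and none was called by edgeR or DESeq2. *Dbil5* had a log2 fold change of -1.05 (SE 0.51), and *Tnp1*, at 0 to 7 counts per library, had 1.71 (SE 1.42). Control replicate 1 was the highest control library for *Epha10*, *Piwil1*, *Ccna1* and *Dbil5*. In that library *Dbil5* alone made up 44.3 of the 44.5 TPM of the spermatid sum. In cKO replicate 4, *Tnp1* made up 6.06 of 11.4 TPM. The sum therefore rests on 1 or a few genes. The part of spermatocytes or spermatids in the *Epha10* difference was not tested.

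The promoters of *Epha10* and *Ryk*, the receptors of lowest and of most evenly higher RNA in cKO libraries, are shown as RefSeq gives them, 250 bases before to 50 after the transcription start on the plus strand. The table is on GRCm38.p6, and both matched GRCm39 exactly at a single place, chr4:124775328-124775627 for *Epha10* and chr9:102711869-102712168 for *Ryk*. Capitals mark each CpG dinucleotide (CG, the same on both strands).
Epha10 promoter: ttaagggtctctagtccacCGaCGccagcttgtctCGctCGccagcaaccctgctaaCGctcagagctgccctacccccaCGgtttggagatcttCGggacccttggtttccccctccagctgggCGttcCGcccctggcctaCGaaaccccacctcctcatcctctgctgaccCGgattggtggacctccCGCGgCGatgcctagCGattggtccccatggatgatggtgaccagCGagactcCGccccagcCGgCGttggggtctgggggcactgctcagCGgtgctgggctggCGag
Ryk promoter: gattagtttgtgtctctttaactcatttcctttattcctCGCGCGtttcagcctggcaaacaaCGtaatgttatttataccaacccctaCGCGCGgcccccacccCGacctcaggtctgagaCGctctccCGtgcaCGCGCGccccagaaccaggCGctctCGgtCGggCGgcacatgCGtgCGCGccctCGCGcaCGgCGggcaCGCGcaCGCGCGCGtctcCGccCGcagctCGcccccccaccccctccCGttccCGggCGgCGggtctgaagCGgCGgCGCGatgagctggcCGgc
The *Epha10* window holds 21 CpG at 65.3% GC, and 24.8% of the 32851 promoters of the same length in the table hold as many or more. The *Ryk* window holds 42 CpG at 67.7% GC, which 3.03% of promoters reach. Promoters were found for 34 of the 40 receptor genes, 40 windows in all. Their median was 20 CpG against 7 over all promoters, and 75% held at least 10, against 43.5% of all. Both promoters shown are thus of the CpG-rich kind that most of these receptor genes have.

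*Ryk* (ENSMUSG00000032547, GRCm39 chr9:102712002-102785504, plus strand) was measured at 119.9, 113, 106 and 108 CPM in control and at 147, 132, 123 and 126 CPM in cKO libraries. The lowest cKO library was above the highest control library, and replicate 1 was the highest of both genotypes. Means were 112 ± 6.25 and 132 ± 10.6 CPM (SD, n = 4), 18.3% higher in cKO, with a log2 fold change of 0.24 (SE 0.08, 95% interval 0.08 to 0.41). This passed neither edgeR (adjusted p = 0.40) nor DESeq2 (adjusted p = 0.20) over all 8 libraries. Without replicate 1 of either genotype the log2 fold change was 0.22 (edgeR adjusted p = 0.041).

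The other receptors that bind Wnt ligands or act beside them had smaller log2 fold changes than *Ryk*, with larger SE. *Ror1* and *Ror2*, receptors of WNT5A, gave log2 fold changes of 0.02 (SE 0.38) and 0.19 (SE 0.20). For *Ptk7* the value was 0.16 (SE 0.22, edgeR adjusted p = 0.87). Their genotypes overlapped in each case, and each 95% interval held the 0.24 of *Ryk*.

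Among receptors of somatic cells, 12 of the 40, log2 fold changes had a median of 0.08, with 8 above 0 and 4 below. None passed edgeR or DESeq2 over all libraries. At an unadjusted p under 0.05 there was 1 in both, *Csf1r*, against 8.9% of all genes in edgeR and 9.63% in DESeq2. Within genotypes these receptors varied together with replicate 1, which was the lowest control for 9 of 12 (36.1% of all genes), the lowest cKO for 9 of 12 (37.9%) and the lowest in both for 7 of 12 (21.9%).

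Of the 3 mesenchymal receptors, *Pdgfra*, which binds PDGF-A and marks interstitial and peritubular progenitors, differed most. It was measured at 50.5, 69.2, 64.8 and 83.8 CPM in control and at 63.5, 94.3, 87.5 and 91.1 CPM in cKO libraries. Replicate 1 was the lowest of both genotypes, and 3 of the 4 cKO libraries were above every control. The log2 fold change was 0.33 (SE 0.16, 95% interval -0.04 to 0.69, edgeR adjusted p = 0.60, DESeq2 adjusted p = 0.48). Without control replicate 1 alone it was 0.21 (edgeR adjusted p = 0.79), and without replicate 1 of either genotype it was again 0.33, with an edgeR adjusted p of 0.0085. *Pdgfrb*, the pericyte and smooth muscle receptor, had a log2 fold change of 0.01 (SE 0.32) at 4.04 CPM in controls, and *Ddr2*, a receptor of fibrillar collagen, of 0.11 (SE 0.20) at 14.8 CPM. Their 95% intervals, -0.69 to 0.70 and -0.33 to 0.55, held 0 well inside.

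Fibroblast markers had the same direction as *Pdgfra*, with overlap between genotypes in their sum. The summed level of 5 of them was 164 to 251 TPM in control and 209 to 331 TPM in cKO libraries, and all 5 had log2 fold changes above 0, though none passed edgeR or DESeq2. *Dcn*, which encodes the matrix proteoglycan decorin, was measured at 21.2, 32.8, 32.5 and 41.1 TPM in control and at 41.4, 42.0, 45.5 and 55.6 TPM in cKO libraries, without overlap (edgeR adjusted p = 0.38, DESeq2 adjusted p = 0.087). Peritubular myoid markers, 4 genes, summed to 380.3 to 511 TPM in control and 344 to 652 TPM in cKO libraries. The part of fibroblasts or myoid cells in the *Pdgfra* values was not tested.

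*Csf1r* (ENSMUSG00000024621), the receptor of the macrophage growth factor CSF1, had the highest log2 fold change of the 40 receptors. It was measured at 6.25, 9.79, 6.32 and 6.33 CPM in control and at 14.9, 9.84, 8.65 and 9.93 CPM in cKO libraries. Control replicate 2 was the one control at the level of the cKO libraries, and it lay above cKO replicate 3. The log2 fold change was 0.59 (SE 0.22, 95% interval 0.11 to 1.08, edgeR adjusted p = 0.47, DESeq2 adjusted p = 0.26). Without replicate 1 of either genotype it was 0.34 (edgeR adjusted p = 0.49), and without cKO replicate 1 alone 0.40 (edgeR adjusted p = 0.45). In TPM, which RSEM corrects for the transcripts it assigns, the order differed, with 6.93, 4.17, 3.49 and 9.03 TPM in cKO and 2.64, 3.95, 2.72 and 3.45 TPM in control libraries. Reads here could also be shared, which was not measured, since 19.8% of the annotated exon bases of *Csf1r* overlap *Hmgxb3*. That gene was measured at 109.6 ± 3.21 CPM in control and 112 ± 5.31 CPM in cKO libraries (SD, n = 4).

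Macrophage markers overlapped between genotypes. The sum of 7 was 38.1 to 68.5 TPM in control and 55.6 to 63.7 TPM in cKO libraries, and 6 of the 7 had log2 fold changes above 0. None of the 7 passed edgeR or DESeq2. *Adgre1*, which encodes the macrophage surface protein F4/80, was the exception, with a log2 fold change of -0.08 (SE 0.38), from 1.81 to 1.71 CPM on average. The part of macrophages in the *Csf1r* values was not tested.

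The 5 endothelial receptors were among the lowest of the 40, except *Ephb4*. *Tek*, the angiopoietin receptor TIE2, was measured at 1.43, 3.44, 2.15 and 2.58 CPM in control and at 1.39, 2.26, 1.47 and 0.922 CPM in cKO libraries (log2 fold change -0.66, SE 0.37, edgeR adjusted p = 0.63). For *Tie1*, its partner receptor, the log2 fold change was -0.41 (SE 0.44), and for the VEGF receptors *Kdr* and *Flt1* it was -0.06 (SE 0.34) and 0.24 (SE 0.25). *Ephb4*, the ephrin-B2 receptor of veins, had the narrowest interval of the group, with -0.02 (SE 0.11, 95% interval -0.27 to 0.22). The median of the 5 was -0.06, and 4 of the 5 were below 0. Endothelial markers, 6 genes, summed to 8.50 to 19.1 TPM in control and 7.82 to 14.3 TPM in cKO libraries, and 0 of the 6 had a log2 fold change above 0. None passed edgeR or DESeq2. In control and cKO replicate 1 this sum had log2 values of -0.72 and -0.84 against the mean of the 8 libraries. *Ephb4*, at a mean of 13.8 TPM, did not share this, with 0.17 and 0.00. The part of endothelial cells in the values of *Ephb4*, *Tek* and *Tie1* was not tested.

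The TAM receptors of Sertoli cells were at near levels in both genotypes. *Tyro3* was 325 ± 31.4 CPM in control and 338 ± 26.8 CPM in cKO libraries (SD, n = 4), with a log2 fold change of 0.06 (SE 0.09, 95% interval -0.13 to 0.24). *Axl* was 296 ± 29.2 and 318 ± 35.4 CPM, with a log2 fold change of 0.10 (SE 0.10). *Mertk* had a value of 0.11 (SE 0.13). None of the 3 passed the test (edgeR adjusted p = 0.78 or above), and their ligand gene *Gas6* was as near, with 200 ± 8.49 CPM in control and 208 ± 11.6 CPM in cKO libraries (log2 fold change 0.05, SE 0.07). Of the 10 Sertoli markers, 8 had log2 fold changes above 0 and none passed either test.

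**Figure D3:**
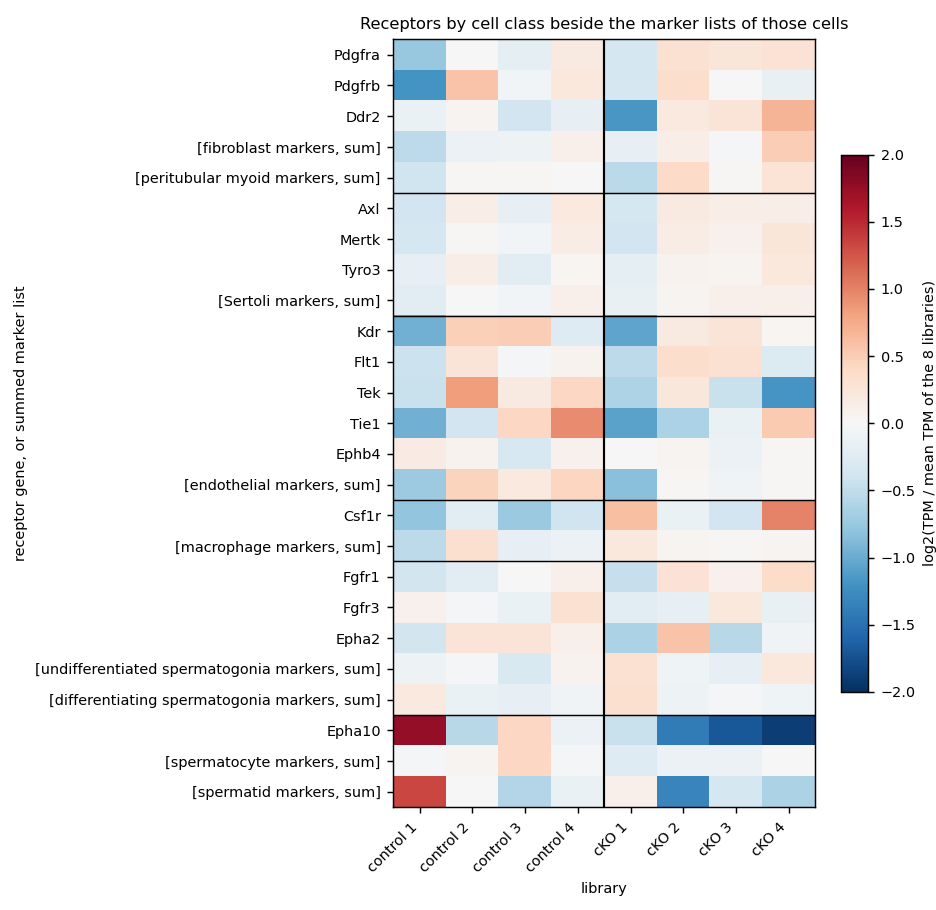
Log2 of TPM over the mean TPM of the 8 libraries, for receptors grouped by the cells they are known from and, in brackets, for the summed marker lists of those cells. Red is above and blue below the mean. Replicate 1 is blue in both genotypes for *Axl* (-0.39 and -0.36), *Kdr* (-0.96 and -1.06) and the endothelial sum (-0.72 and -0.84), and *Epha10* runs from 1.75 in control replicate 1 to -1.88 in cKO replicate 4.

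For the 3 receptors listed for germ cells, genotype differences were within replicate spread, with a median log2 fold change of -0.01. *Kit* and *Ret*, also receptors of spermatogonia, are not among the 40 and had 0.21 (SE 0.15) and 0.18 (SE 0.13). *Fgfr1*, an FGF2 receptor of spermatogonia, was measured at 31.8, 35.7, 34.5 and 40.1 CPM in control and at 30.2, 47.6, 40.6 and 43.7 CPM in cKO libraries. *Fgfr3*, a marker of undifferentiated spermatogonia, was measured at 20.2, 17.1, 15.2 and 17.3 CPM in control and at 17.7, 14.5, 20.0 and 15.0 CPM in cKO libraries. *Epha2*, found on spermatogonial stem cells, was measured at 7.06, 10.4, 6.70 and 7.50 CPM in control and at 5.91, 11.7, 6.14 and 7.80 CPM in cKO libraries. Genotypes overlapped for each, and cKO replicate 2 was the highest library for *Fgfr1* and *Epha2* but the lowest for *Fgfr3*. The lowest library for *Fgfr1* and *Epha2*, though not for *Fgfr3*, was cKO replicate 1. That library had the highest marker sums of undifferentiated and differentiating spermatogonia (148 and 482 TPM). In the second sum, *Dmrtb1* was 115 TPM in this library and 36.9 to 43.6 TPM in the other cKO libraries. *Prdm9*, of the same sum, went the other way, at 20.7 TPM against 37.0 to 42.1 TPM. Which cells held the RNA of *Fgfr1*, *Fgfr3* and *Epha2* was not tested.

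Their log2 fold changes were 0.19 (SE 0.14) for *Fgfr1*, -0.05 (SE 0.15) for *Fgfr3* and -0.01 (SE 0.25) for *Epha2*, with edgeR adjusted p of 0.70 or above. The 95% interval of *Fgfr1*, from -0.11 to 0.49, and that of *Fgfr3*, from -0.37 to 0.26, lay inside 1.5-fold. That of *Epha2*, from -0.54 to 0.53, was wider but also inside 1.5-fold. The other FGF receptor genes, *Fgfr2* and the kinase-less *Fgfrl1*, had log2 fold changes of -0.19 (SE 0.24) and 0.03 (SE 0.09). The undifferentiated spermatogonia markers, 8 genes, summed to 97.2 to 126 TPM in control and 108 to 148 TPM in cKO libraries, with 7 of the 8 above 0. The exception was *Id4*, a stem cell marker, which was lower in every cKO library than in any control (50.8 and 36.4 CPM on average, log2 fold change -0.48, SE 0.13) and was the one DESeq2 called (adjusted p = 0.039, edgeR adjusted p = 0.31). The differentiating spermatogonia markers, 6 genes, summed to 344 to 443 TPM in control and 359 to 482 TPM in cKO libraries. Leydig cell markers, 6 genes, overlapped between genotypes, at 35.9 to 89.7 TPM in control and 48.6 to 73.8 TPM in cKO libraries.

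Apart from *Epha10*, the Eph receptors were near the same level in both genotypes. The 10 had a median log2 fold change of 0.04, with 6 above 0 and 4 below. *Epha8*, the most abundant of the A class, gave 0.04 (SE 0.13), from 29.6 ± 3.03 CPM in control to 30.4 ± 4.61 CPM in cKO libraries (SD, n = 4). *Ephb1*, which binds ephrin-B ligands, gave -0.15 (SE 0.13) and *Ephb6*, whose kinase domain is inactive, 0.18 (SE 0.15). *Epha1*, *Epha7*, *Ephb2* and *Ephb3* had values from 0.04 to 0.26. For *Epha1*, at 4.13 CPM in controls, 36.9% of the annotated exon bases overlap *Zyx*, which was at 209.7 CPM in controls. The ephrin genes, all 8 tested, had a median of 0.15, and none was called by edgeR or DESeq2 (0 at an unadjusted p under 0.05 in both).

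The remaining growth factor receptors were similarly placed. The ERBB family, receptors of EGF and neuregulins, had log2 fold changes from 0.01 for *Erbb2* to 0.22 for *Erbb3*, all 4 above 0. *Igf1r*, which supports proliferation of immature Sertoli cells, was 127 ± 11.9 CPM in control and 138 ± 4.03 CPM in cKO libraries (SD, n = 4), with a log2 fold change of 0.11 (SE 0.08, 95% interval -0.05 to 0.28). *Insr*, the insulin receptor, had a value of -0.04 (SE 0.16). *Met*, the hepatocyte growth factor receptor, had 0.27 (SE 0.21) and its relative *Mst1r* -0.27 (SE 0.30). The neurotrophin receptors *Ntrk2* and *Ntrk3* had 0.07 (SE 0.22) and 0.18 (SE 0.31). *Ddr1* had 0.06 (SE 0.08), from 212 ± 19.5 to 220.5 ± 17.9 CPM (SD, n = 4). None of these passed either test.

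Of 63 genes listed as ligands of receptor tyrosine kinases, 46 were tested and none was called by edgeR or DESeq2, against 0.0396% and 1.5% of all genes. At an unadjusted p under 0.05 there were 0 in both, against 8.9% and 9.63%. Their median log2 fold change was 0.08, with 30 above 0 and 16 below. The most abundant were *Gas6* (mean 140.4 TPM), *Kitl* (65.4 TPM), the Sertoli cell ligand of KIT on differentiating spermatogonia, and *Efnb1* (28.6 TPM), an ephrin. *Kitl* was 147 ± 9.08 CPM in control and 155 ± 7.01 CPM in cKO libraries (SD, n = 4), a log2 fold change of 0.09 (SE 0.07). *Efnb1* had a log2 fold change of 0.06 (SE 0.13). No listed ligand separated the genotypes past either test.

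Adaptors, docking proteins and negative regulators, which act below the receptors, held 1 gene that DESeq2 called. Of 42 listed, 40 were tested, with a median log2 fold change of 0.06. EdgeR called none (3 at an unadjusted p under 0.05, against 8.9% of all genes), and DESeq2 called 1, *Cbl*, against 1.5% of all genes (5 at an unadjusted p under 0.05, against 9.63%). Genotypes did not overlap for 1 adaptor on each side, against 3.03% of all genes lower and 2.47% higher in cKO libraries, so that these counts were near those of all genes. *Cbl* encodes the ubiquitin ligase that sends activated receptors for degradation. It was measured at 194, 178, 191 and 170.3 CPM in control and at 156, 144, 141 and 154 CPM in cKO libraries, so that the highest cKO library was below the lowest control library. Its log2 fold change was -0.30 (SE 0.07, 95% interval -0.45 to -0.15), with an adjusted p of 0.24 in edgeR and 0.010 in DESeq2. The DESeq2 call was lost without control replicate 1 or 3 (adjusted p = 0.068 and 0.10) or cKO replicate 2, 3 or 4 (adjusted p = 0.13, 0.14 and 0.063), with log2 fold changes from -0.34 to -0.28 over the 8 such fits.

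*Shc1*, the adaptor that links phosphorylated receptors to GRB2, was the one adaptor with all cKO libraries above the controls. It was measured at 70.6, 69.7, 69.4 and 75.1 CPM in control and at 80.4, 80.2, 82.6 and 75.9 CPM in cKO libraries. The log2 fold change was 0.16 (SE 0.07), with an adjusted p of 0.53 in edgeR and 0.36 in DESeq2. *Frs3*, an FGF receptor docking protein, was measured at 48.6, 22.4, 27.4 and 21.2 CPM in control and at 27.8, 16.3, 21.3 and 17.2 CPM in cKO libraries. *Sh2b3*, the inhibitory adaptor LNK, was measured at 119, 78.9, 88.3 and 68.6 CPM in control and at 83.6, 60.8, 59.8 and 68.7 CPM in cKO libraries. For both, replicate 1 was the highest of each genotype and the genotypes overlapped. Their log2 fold changes were -0.53 (SE 0.29) and -0.38 (SE 0.17), with edgeR adjusted p of 0.63 and 0.57. Without control replicate 1 they were -0.19 and -0.20 (edgeR adjusted p = 0.85 and 0.79). Without replicate 1 of either genotype, edgeR called *Cbl* (log2 fold change -0.30, adjusted p = 0.0023) and *Sh2b3* (-0.32, adjusted p = 0.026) among the adaptors.

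**Figure D4:**
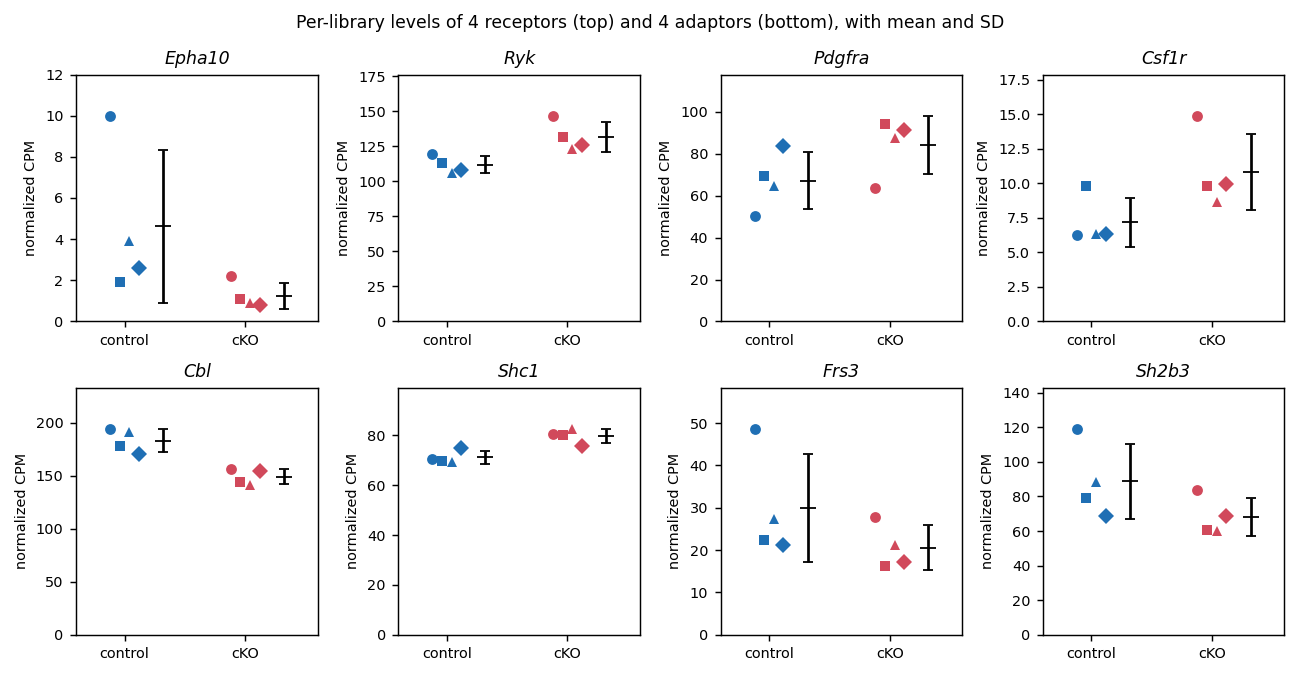
Normalized CPM in each library for the receptors *Epha10*, *Ryk*, *Pdgfra* and *Csf1r* (top) and the adaptors *Cbl*, *Shc1*, *Frs3* and *Sh2b3* (bottom), with the mean and SD of the 4 libraries of each genotype in black and each axis starting at 0. Circles, squares, triangles and diamonds are replicates 1 to 4. Genotypes do not overlap for *Ryk*, *Cbl* and *Shc1*, and control replicate 1 is far above the other controls for *Epha10* (10.0 CPM) and *Frs3* (48.6 CPM).

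The 3 adaptors of highest level were *Plcg1* (mean 81.7 TPM), the phospholipase recruited by many receptors, *Grb14* (74.7 TPM), an inhibitor of the insulin receptor, and *Errfi1* (70.0 TPM), an inhibitor of ERBB kinases. Their log2 fold changes were -0.02 (SE 0.09), 0.18 (SE 0.12) and 0.08 (SE 0.21). Of 19 further receptor tyrosine kinases, 8 were tested and none was called by edgeR or DESeq2 (0 at an unadjusted p under 0.05 in both), with a median of 0.11. *Kit*, the stem cell factor receptor of differentiating spermatogonia, led them at a mean of 34.9 TPM and had a log2 fold change of 0.21 (SE 0.15). *Ret*, the GDNF receptor of undifferentiated spermatogonia, had 0.18 (SE 0.13), and *Lmtk2*, a membrane kinase required for late spermatogenesis, had -0.17 (SE 0.08, edgeR adjusted p = 0.56).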

How the data were processed

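Polyadenylated RNA of germ cells from 4 control and 4 cKO males was sequenced from non-stranded, paired-end libraries. Per the paper, replicates are separate mice. The authors aligned reads to mm39 with STAR 2.7.9a and deposited RSEM 1.3.3 expected counts and TPM values for 55357 genes, with Ensembl annotation and without normalization between samples. Expected counts were rounded, since 15.2% of those above 0 were not whole, and RSEM divides reads shared by several transcripts. Because the libraries carry no strand, reads of overlapping genes cannot be told apart.

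Genes with TPM of at least 1 in at least 1 library (20187) were tested with edgeR 4.0.16 in R 4.3.3, using TMM normalization, a robust quasi-likelihood fit and F-test with no covariate, and Benjamini-Hochberg adjustment at 0.05 over all genes tested. DESeq2 1.42.0, limma-voom (limma 3.58.1), other normalizations and filters, a replicate block, leaving out each library, and both replicates 1 left out were alternatives. Tests were tried on simulated data. The intervals come from the edgeR standard errors. The floor of 3 counts covers counting error only.

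The receptors, other lists and marker lists were chosen with earlier results of these data known. All receptors may be named, and values per library are given for those called or not overlapping, the 10 of highest TPM and those of germ cells. *Csf1r*, *Tek*, *Dcn* and the other marker genes given by library were chosen after their values were seen. From the other lists, called or non-overlapping genes and the 3 of highest TPM are named. *Nrg1* stands on 2 rows, and ENSMUSG00000062991 was used. Gene positions and exon overlaps are from GENCODE on GRCm39, not from the Ensembl annotation behind the counts. Figures were drawn with matplotlib 3.10.9.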

Additional observations from a re-analysis of the deposited data

Results flagged for a closer look

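Among 128 groups of 4 libraries examined (the named genes and the marker lists, in each genotype), 9 had 1 library farther from the rest than Dixon's 95% critical value, where chance flags about 1 in 20. Replicate 1 was that library in 7 of the 9, and 2 of the 9 were receptors described above. *Axl* was 265 CPM in cKO replicate 1 and 329.6 to 341 CPM in the other cKO libraries. *Csf1r* was 9.79 CPM in control replicate 2 and 6.25 to 6.33 CPM in the other controls. *Efnb1* was 41.0 CPM in control replicate 3 and 56.1 to 58.6 CPM in the others.

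In cKO replicate 1, *Grb14* was 44.3 CPM against 57.8 to 60.0 CPM in the other cKO libraries, and *Kit* was 144 CPM against 97.4 to 101 CPM. The same library had an endothelial marker sum of 7.82 TPM (others 13.4 to 14.3 TPM), a macrophage marker sum of 63.7 TPM (55.6 to 56.9 TPM) and a differentiating spermatogonia marker sum of 482 TPM (359 to 379.8 TPM). Control replicate 1 had a peritubular myoid marker sum of 380.3 TPM, where the other controls had 498 to 511 TPM.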

How the results depend on the processing

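EdgeR called 8 genes over all 8 libraries, 18 with upper-quartile normalization, 17 with library totals, 35 with no TPM filter, and 0 with limma-voom, with filterByExpr or with a fit that was not robust. DESeq2 called 302. With the replicate number as a block edgeR called 1464 (7.25%) and DESeq2 1223 (6.06%), and edgeR called 855 without replicate 1 of either genotype. Leaving out 1 library, edgeR called 0 to 32. DESeq2 called 116, 291, 81 and 559 without control replicates 1 to 4 and 893, 85, 95 and 108 without cKO replicates 1 to 4. The DESeq2 fits with 1 library left out were chosen after seeing the data. The cause of these differences was not tested.

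Of the receptors, edgeR called 0, DESeq2 1 and each of the fits without both replicates 1 or with the replicate block 3, namely *Epha10*, *Ryk* and *Pdgfra*. DESeq2 with 1 library left out called 0 or 1 (*Epha10*), and edgeR 0 in each. Of the adaptors, DESeq2 called 1, edgeR without both replicates 1 called 2, and the block gave 3 in both tools (*Cbl*, *Frs3* and *Sh2b3*). The replicate numbers were shared by the titles alone. The deviations of same-numbered libraries from their genotype means correlated at r = 0.475, 0.111, 0.029 and 0.16 for numbers 1 to 4, so that pairing was not shown, and not every library correlated best with its own number. No ligand and no other receptor tyrosine kinase was called under these settings.

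*Mgat2* passed with DESeq2 (-1.06) and with DESeq2 and the block (-1.08), not with edgeR. Near 0, *Epha2* changed sign with upper-quartile normalization (0.02) and without both replicates 1 (0.06), and *Plcg1* did so with 0.00 and 0.02. Leaving out 1 library, the log2 fold changes ran from -0.26 to 0.16 for *Epha2*, -0.15 to 0.03 for *Fgfr3*, -0.02 to 0.06 for *Fgfrl1*, -0.06 to 0.29 for *Ptk7*, -0.07 to 0.05 for *Plcg1*, -0.05 to 0.23 for *Errfi1*, -0.05 to 0.15 for *Efnb1*, -0.71 to -0.19 for *Frs3* and -0.49 to -0.20 for *Sh2b3*. The median of the germ cell receptors, -0.01, ran from -0.08 to 0.16, and that over the 40 receptors stayed between 0.04 and 0.15. The planned count of N-glycosylation sequons in the receptor proteins was not run. With 4 mice per genotype and a median SE of 0.21, the interval reached past 1.5-fold on at least 1 side for 20 of the receptors.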
